A study of Mus musculus with 5 samples.

Results

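The STAT and SOCS genes described here are 9 genes chosen by symbol from the 21990 genes of an expression table: Stat2, Stat3, Stat5a, Stat5b and Stat6, and the SOCS family genes Socs1, Socs2, Socs3 and Cish. The series holds 3 CD137 samples and 2 control samples of RAW264.7, a mouse monocyte/macrophage cell line. The CD137 cells express Renilla luciferase and mouse Cd137. Its gene, Tnfrsf9, encodes a co-stimulatory member of the TNF receptor family. The control cells express Renilla luciferase alone, so the luciferase is common to both groups. The table used here holds CD137 replicates 2 and 3 and control replicate 2. The labels name no clone, selection or culture for either group. The question is which STAT and SOCS transcripts differ when Cd137 is introduced, in a study of monocyte and macrophage migration and osteoclast differentiation.

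STAT proteins are latent transcription factors of the cytoplasm. A cytokine receptor with its JAK kinases phosphorylates them, and they then pair and bind DNA in the nucleus. SOCS proteins, CIS (the product of Cish) among them, are feedback inhibitors that are induced by STATs and block receptors, JAKs or STAT docking. In macrophages, STAT2 serves type I interferons, STAT3 serves interleukin-6 and interleukin-10, STAT5 serves GM-CSF, and STAT6 serves interleukin-4. SOCS1 and SOCS3 inhibit JAK kinases directly, whereas CIS and SOCS2 are known as feedback inhibitors of STAT5 signalling.

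RNA was selected with oligo-dT beads, and the values are FPKM, in which fragments are divided by transcript length and by the size of the library, so levels of different genes can be compared per length. Whole fragments could also be recovered from the deposited p-values, and the depth of CD137 replicates 2 and 3 was 0.983 and 0.988 of control replicate 2. Tnfrsf9, which checks the labels, was at 364 and 370 FPKM in CD137 replicates 2 and 3 and at 5.06 FPKM in the control. All 8 macrophage markers examined (Adgre1, Cd68, Itgam, Csf1r, Lyz2, Ptprc, Cd14 and Spi1) were above 1 FPKM in every library. Their summed FPKM was 1874 and 1917 in the CD137 libraries and 3077 in the control, and Lyz2 made up most of the gap, with 646 and 669 FPKM in the CD137 libraries and 1693 FPKM in the control. The 8 did not move together, since 4 fell and 3 rose (Adgre1, Itgam and Ptprc). The control is a single library and carries no replicate error. The labels do not tie the CD137 replicates to separate cultures, and p-values then cover only their mutual spread, which may be technical.

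The sequences shown first are those at the start of Cish, the member with the largest fold change among the 7 expressed members. Cish was picked for that change, and a part of these sequences in it was not tested. In the RefSeq promoter table (GRCm38.p6, the assembly of mm10), the 30 bases from the annotated start of Cish, at chr9:107296659-107296688 on the plus strand, hold a pair of matches to the GAS motif, the element that STAT dimers bind. The motif was searched as TTCNNNGAA, which reads the same on both strands, and capitals mark the matches.
Cish, from the start: TTCCTGGAAagTTCTTGGAAatctgtcaaa
The matches begin at positions 1 and 12 counted from the annotated start. At least 1 match was found in 8.30 percent of the 32851 promoter windows of the table, each 300 bases long, and at least 2 matches in 0.457 percent. The 250 bases before the start (chr9:107296409-107296658, plus strand) hold no match to it.
Cish, upstream: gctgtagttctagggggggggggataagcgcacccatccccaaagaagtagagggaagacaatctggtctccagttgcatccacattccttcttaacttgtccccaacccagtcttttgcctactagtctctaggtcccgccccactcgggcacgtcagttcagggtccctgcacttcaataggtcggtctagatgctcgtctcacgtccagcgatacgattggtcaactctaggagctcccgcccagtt
Socs3 is shown for comparison, because its window holds a single match, at position -154 from its RefSeq start (chr11:117969367-117969616, minus strand). This stretch is upstream of the RefSeq start only. It lies inside the gene span given with the expression values, 117966079 to 117970342.
Socs3, upstream: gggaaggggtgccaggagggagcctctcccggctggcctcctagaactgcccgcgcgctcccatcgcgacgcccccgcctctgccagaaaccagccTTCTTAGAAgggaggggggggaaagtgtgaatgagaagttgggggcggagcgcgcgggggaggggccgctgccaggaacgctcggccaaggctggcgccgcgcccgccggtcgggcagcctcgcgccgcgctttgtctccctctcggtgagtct

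The other members past the test threshold, Stat3 (higher with CD137) and Stat6 (lower), had no match to any of 3 motifs in their windows. The other motifs were the GAS form with a 4-base spacer, TTCNNNNGAA, found in 6.95 percent of windows, and the core of the interferon response element, GAAANNGAAA on either strand, found in 3.44 percent. The upstream stretches of Stat3 (chr11:100939541-100939790, minus strand) and Stat6 (chr10:127642736-127642985, plus strand) follow, as windows without a match.
Stat3, upstream: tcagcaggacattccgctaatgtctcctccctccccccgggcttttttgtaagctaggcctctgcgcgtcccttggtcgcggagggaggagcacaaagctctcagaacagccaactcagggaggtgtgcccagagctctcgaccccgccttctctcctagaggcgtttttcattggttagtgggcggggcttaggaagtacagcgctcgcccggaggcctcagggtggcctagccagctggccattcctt
Stat6, upstream: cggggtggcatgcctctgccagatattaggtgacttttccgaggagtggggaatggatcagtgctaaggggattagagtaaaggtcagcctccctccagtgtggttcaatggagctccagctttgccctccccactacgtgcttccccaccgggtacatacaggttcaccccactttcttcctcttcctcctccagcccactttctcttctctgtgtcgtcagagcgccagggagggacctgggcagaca
The interferon response element core was found for Stat2 (chr10:128270271-128270300, plus strand) and for Socs1 (chr16:10785595-10785624, minus strand). In Stat2 it lies beside a match to the 4-base spacer form, and in Socs1 a pair of overlapping matches shares 4 bases. Capitals mark the matches of both motifs.
Stat2, core: cctggTTTCAGTTTCctTTCCCTAGAActc
Socs1, core: tgccgGAAAGAGAAACCGAAAgcgggggtg
Windows were found for 8 of the 9 members, 10 windows in all, and 4 of these 8 members had a match to at least 1 motif. The share of all windows with a match to any of the 3 motifs was not computed, so this count has no background. Socs2 is named only. For Socs3, Stat5a and Stat5b the RefSeq windows lie inside the gene spans given with the expression values. The starts of those spans were not searched, so presence or absence of a motif there is not known. A match describes letters in a window, not a bound site.

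**Figure D1:**
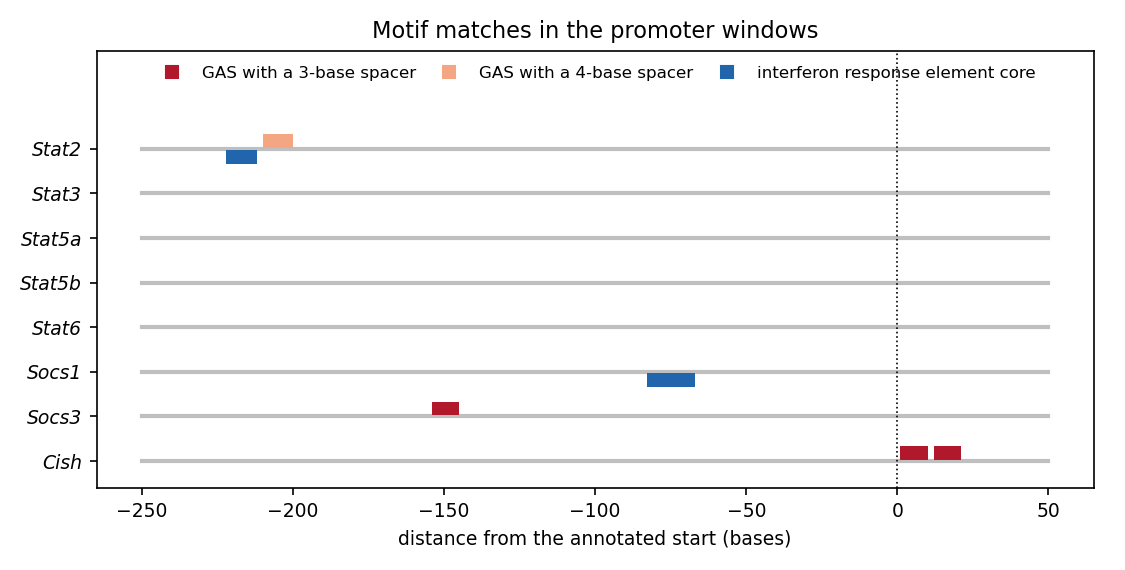
Motif matches in the 300-base promoter windows of 8 members (rows), against distance from the annotated start in bases, with bars at the matched bases. Cish carries 2 matches to the GAS form with a 3-base spacer just after its start, and Socs3 carries 1 upstream of its RefSeq start. The windows of Stat3, Stat5a, Stat5b and Stat6 carry no match. Those of Socs3, Stat5a and Stat5b lie inside the gene spans given with the expression values, and the starts of these spans were not searched.

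Among the STAT genes the data show a small rise of Stat3, a small fall of Stat6, and no change past the threshold for Stat2, Stat5a and Stat5b. Changes were tested with limma on log2(FPKM + 1) over all 10720 genes with at least 1 FPKM in some library, called expressed genes here. Of these, 42.6 percent passed a Benjamini-Hochberg adjusted p of 0.05 (24.4 percent higher and 18.2 percent lower in CD137). Of the 9 members, 7 were expressed, and 3 of those 7 passed, 2 higher and 1 lower, a share near that of all expressed genes. Only a gene past this threshold is said to have risen or fallen. In the limma fit of all 16003 genes with a value no member passed and 0 percent of genes did (0 percent higher and 0 percent lower), although 5281 genes, 4 members among them, had an unadjusted p under 0.05. With 1 control and 2 CD137 libraries an exact permutation test of a single gene cannot go below p = 0.333.

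Stat6, the STAT of interleukin-4 and interleukin-13 responses, was by far the most abundant member per length. The gene (ID 20852) spans bases 127642986 to 127660987 of chromosome 10 (mm10, plus strand). It was at 48.3 and 49.7 FPKM in CD137 replicates 2 and 3, against 57.1 FPKM in the control. Both CD137 libraries lay below the control, by more than they differed from each other. The log2 fold change was -0.22 ± 0.04 (SE, limma adjusted p = 0.0177), which is 85.9 percent of the control level. From 3251 and 3362 recovered fragments in the CD137 libraries and 3906 in the control, the ratio was 0.859, with a 95% counting interval from 0.826 to 0.894. Stat6 lost its call without the mean-variance trend (limma adjusted p = 0.0558). In GENCODE it overlaps Nab2, on the other strand, by 40 bases, and strandedness of the counting is not given in the sources used here. In bulk RNA, fewer cells with a transcript and less of it per cell cannot be told apart.

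Stat3, the STAT of the interleukin-6 family and interleukin-10, spans bases 100886806 to 100939579 of chromosome 11 (ID 20848, minus strand). It was at 15.8 and 16.3 FPKM in CD137 replicates 2 and 3 and at 13.0 FPKM in the control. The CD137 libraries were close together and both above the control. It rose by a log2 fold change of 0.28 ± 0.06 (SE, limma adjusted p = 0.0173), with a ratio of 1.23 in FPKM. Recovered fragments were 1263 and 1303 in the CD137 libraries and 1058 in the control, a ratio of 1.23 with a 95% counting interval from 1.15 to 1.32. As Stat3 rose and Stat6 fell, the level of Stat6 over that of Stat3 was 3.06 and 3.05 in the CD137 libraries, against 4.39 in the control.

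Stat5a and Stat5b encode the near-identical STAT5 proteins, which carry GM-CSF and growth hormone signals. Stat5b (ID 20851, chromosome 11, 100780731 to 100859004, minus strand) and Stat5a (ID 20850, 100859351 to 100885169, plus strand) lie head to head with 346 bases between them. Stat5a and Stat3 converge, with 1636 bases between their 3′ ends in the table, and in GENCODE they overlap by 72 bases on opposite strands. Stat5b was at 7.87 and 7.97 FPKM in the CD137 libraries and 7.53 FPKM in the control. Stat5a was at 6.72 and 7.07 FPKM in the CD137 libraries and 6.38 FPKM in the control. Both genes were slightly above the control in each CD137 library, and neither passed. The 95% interval of the log2 fold change ran from -0.11 to 0.24 for Stat5b and from -0.10 to 0.29 for Stat5a. Rises of more than 1.18-fold and 1.22-fold on that scale are therefore outside these intervals. Of the distinct 50-base stretches in the GENCODE transcripts, 8.21 percent in Stat5a and 11.0 percent in Stat5b also occur in another member, so some fragments could be assigned to either gene. Stat5a over Stat5b was 0.854 and 0.887 in the CD137 libraries and 0.847 in the control.

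Stat2, which encodes a subunit of the interferon-activated complex ISGF3 (ID 20847, chromosome 10, 128270559 to 128292852, plus strand), had values of 8.08 and 8.09 FPKM in the CD137 libraries and 7.87 FPKM in the control. Its log2 fold change of 0.03 had a 95% interval from -0.14 to 0.21. By level the STAT members ran Stat6, Stat3, Stat2, Stat5b and Stat5a in every library. Stat2 and Stat5b were the closest neighbours. They were at 8.08 against 7.87 FPKM in CD137 replicate 2, 8.09 against 7.97 FPKM in CD137 replicate 3 and 7.87 against 7.53 FPKM in the control. The order of this pair was not tested. The summed level of the 5 STATs was 86.8 and 89.1 FPKM in the CD137 libraries and 91.9 FPKM in the control.

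**Figure D2:**
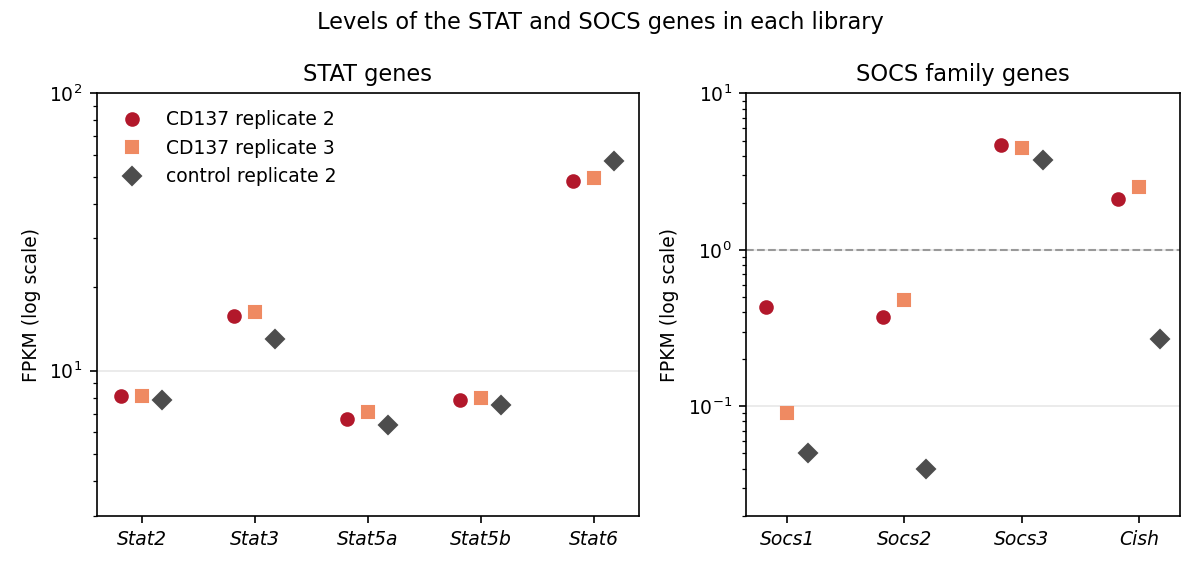
FPKM on log axes of each STAT gene (left panel) and SOCS family gene (right panel) in CD137 replicate 2, CD137 replicate 3 and control replicate 2, each point a library and the dashed line 1 FPKM. Stat6 is lower and Stat3 higher in both CD137 libraries, and Cish stands well above the control in both. The points of Socs2 also lie above the control, but it is below 1 FPKM in all libraries and was not tested among expressed genes.

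Of the 4 SOCS family members 2, Cish and Socs3, were expressed and tested, and Cish passed the threshold. Cish, which encodes CIS, the feedback inhibitor of STAT5 signalling, spans bases 107296659 to 107302784 of chromosome 9 (ID 12700, plus strand). It was at 2.13 and 2.51 FPKM in CD137 replicates 2 and 3, against 0.27 FPKM in the control. Both CD137 values lay far above the control and near each other, with a mean of 2.32 ± 0.27 FPKM (SD, n = 2), 8.59-fold the control. On the log2(FPKM + 1) scale, which understates low genes, the log2 fold change was 1.38 ± 0.14 (SE, limma adjusted p = 0.00244). Only 38 of the 10720 expressed genes had a larger increase on that scale (rank 39). Cish counted as expressed only through the CD137 libraries, so that its presence among the tested members is not evidence of the rise. The recovered fragments were 114 and 135 in the CD137 libraries and 14 in the control, a ratio of 9.02 at equal depth with a 95% counting interval from 5.28 to 16.7. A pair of GENCODE genes on the other strand, Gm17040 and Gm17041, overlaps Cish by 1167 and 1459 bases, and neither is in the table. If the counting was not stranded, their reads in these stretches cannot be told apart from those of Cish.

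Socs2, an inhibitor of growth hormone and STAT5 signalling, was below 1 FPKM in all libraries and was not tested among expressed genes. Its gene (ID 216233) spans bases 95383903 to 95417253 of chromosome 10, minus strand. It was at 0.37 and 0.48 FPKM in CD137 replicates 2 and 3 and at 0.04 FPKM in the control. Recovered fragments numbered 14 and 20 in the CD137 libraries and 1 in the control. The ratio at equal depth was 17.3, with a 95% counting interval from 2.89 to 701. The intervals of the fragment numbers themselves were 7.65 to 23.5 and 12.2 to 30.9 in the CD137 libraries and 0.0253 to 5.57 in the control. They do not overlap, but the share of all genes with such a separation was not computed, so this is not a call. In the limma fit of all genes its adjusted p was 0.111.

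Socs1, the JAK inhibitor of interferon signalling (ID 12703, chromosome 16, 10783808 to 10785536, minus strand), differed between the CD137 libraries themselves. Its level was 0.43 FPKM in CD137 replicate 2 and 0.09 in CD137 replicate 3, against 0.05 FPKM in the control. The recovered fragments were 9 and 2 in the CD137 libraries and 1 in the control. The ratio to the control at equal depth was 9.16 in CD137 replicate 2 (95% counting interval 1.27 to 401) and 2.02 in CD137 replicate 3 (0.105 to 119), so the higher value rests on 1 library. In the limma fit of all genes its adjusted p was 0.573. In the authors' deposited table, the Poisson p for Socs1 between CD137 replicate 3 and replicate 2 was 0.0378, which compares libraries and not conditions. Epithelial markers moved with this difference. The summed FPKM of the 6 listed markers, of which Krt14 has no value, was 6.31 in CD137 replicate 2, 1.17 in CD137 replicate 3 and 0.67 in the control. Krt8 was at 2.60, 0.66 and 0.25 FPKM and Krt18 at 2.59, 0.37 and 0.32 FPKM in CD137 replicate 2, CD137 replicate 3 and the control. Their part in the Socs1 value was not tested. Fibroblast markers, all below 1 FPKM, summed to 0.93 FPKM in CD137 replicate 2, 0.29 in CD137 replicate 3 and 0.29 in the control, and their part was not tested either. T cell markers summed to between 0.52 and 0.71 FPKM and B cell markers to between 0.65 and 1.93 FPKM.

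Socs3, the inhibitor of interleukin-6 receptor signalling (ID 12702, chromosome 11, 117966079 to 117970342, minus strand), was the most abundant of these 4 genes in every library. It was at 4.68 and 4.46 FPKM in CD137 replicates 2 and 3 and at 3.77 FPKM in the control. Both CD137 values were above the control, but the difference did not pass (log2 fold change 0.22 ± 0.09, SE, limma adjusted p = 0.0932). Its 95% interval, before adjustment over genes, ran from 0.002 to 0.44. Recovered fragments were 226 and 217 in the CD137 libraries and 185 in the control, a ratio of 1.22 with a 95% counting interval from 1.02 to 1.45. Of the summed FPKM of these 4 genes, which leaves out Socs4, Socs5, Socs6 and Socs7, Cish held 28.0 and 33.3 percent in the CD137 libraries and 6.54 percent in the control. Socs3 held 61.5 and 59.2 percent in the CD137 libraries and 91.3 percent in the control.

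**Figure D3:**
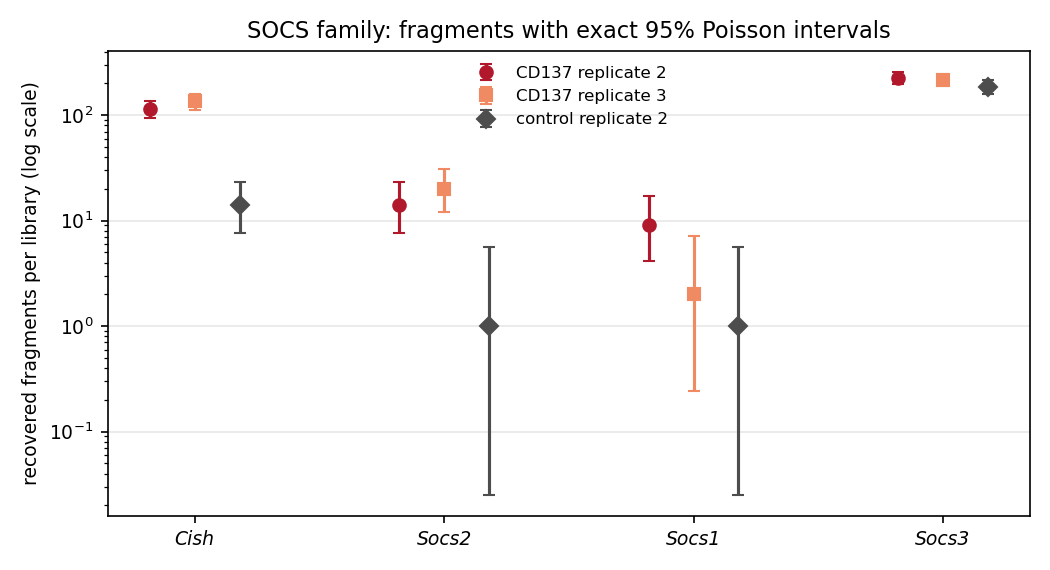
Recovered fragments per library (log axis) of the 4 SOCS family members, with exact 95% Poisson intervals that cover counting error only. The intervals of the CD137 libraries lie above the control for Cish and Socs2, and overlap it for Socs3 and Socs1. The share of all genes with such a separation was not computed, and Socs2 has 1 fragment in the control.

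Of the 7 expressed members, 6 lay above the control in both CD137 libraries and 1, Stat6, lay below it in both. Cish is among the 6 and counted as expressed only through the CD137 libraries, so the count is no support for a direction. Among expressed genes 49.0 percent lay above the control in both CD137 libraries, and 89.2 percent had both of them on 1 side of it; the control library is common to both comparisons. The median log2 fold change of the 7 expressed members was 0.10, against 0.03 over all expressed genes. Apart from Cish, each expressed member fell within the 5th to 95th percentile of all expressed genes, which ran from -0.48 to 0.59.

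**Figure D4:**
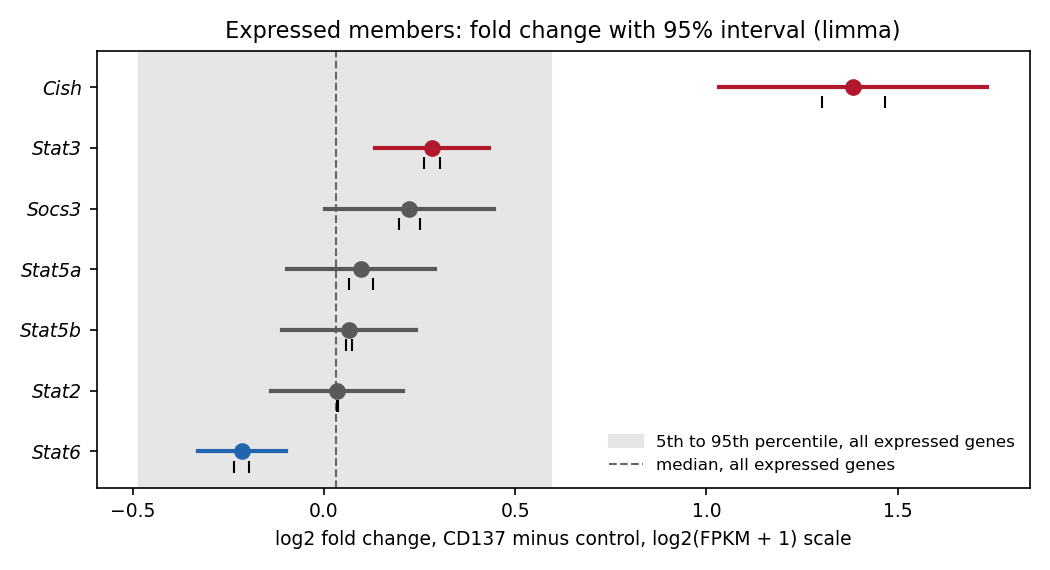
Log2 fold change (CD137 minus control, log2(FPKM + 1) scale) of the 7 expressed members, with 95% limma intervals (horizontal lines) and the separate values of CD137 replicates 2 and 3 (small ticks), over a grey band of the 5th to 95th percentile of 10720 expressed genes and a dashed line at their median. Cish, at 1.38, lies outside the band, and Stat6, at -0.22, lies on the lower side.

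The expressed genes whose centred values over the 3 libraries lay nearest to those of Cish, by Euclidean distance on the log2 scale, were Mfsd7a, Arrdc4 and Batf, at distances of 0.051, 0.088 and 0.095. Arrdc4 was at 22.3 and 25.2 FPKM in the CD137 libraries and 9.20 FPKM in the control. Batf, an AP-1 family transcription factor, was at 4.65 and 4.82 FPKM in the CD137 libraries and 1.27 FPKM in the control. With 3 libraries, likeness describes little more than the size of the rise.

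Upstream of the STATs, of the 4 JAK kinases 3 rose and none fell. The shares to set beside this and each list count below are those of all expressed genes, 24.4 percent higher and 18.2 percent lower. Tyk2, the kinase of interferon and interleukin-12 family receptors, had 20.6 and 22.4 FPKM in the CD137 libraries, against 15.7 FPKM in the control, a log2 fold change of 0.43 ± 0.07 (SE, limma adjusted p = 0.00863). Jak2, the kinase of GM-CSF and growth hormone receptors, had 16.6 and 16.2 FPKM in the CD137 libraries, against 12.4 FPKM in the control. Jak3, the partner of the common gamma chain, had 13.0 and 13.8 FPKM in the CD137 libraries, against 11.2 FPKM in the control. Jak1 was at 37.3 and 35.6 FPKM in the CD137 libraries and 34.4 FPKM in the control, and did not pass (limma adjusted p = 0.272).

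Of 31 listed receptors of JAK-STAT cytokines 19 were expressed, and 11 rose, 2 fell and 6 did not pass (median log2 fold change 0.27). Over all expressed genes 24.4 percent rose and 18.2 percent fell. Il21r, the interleukin-21 receptor, was at 9.92 and 9.46 FPKM in the CD137 libraries and 2.43 FPKM in the control, a log2 fold change of 1.64 ± 0.08 (SE, limma adjusted p = 0.000808). Il2rg, the common gamma chain, was at 61.2 and 64.0 FPKM in the CD137 libraries and 32.8 FPKM in the control. Csf2ra, a subunit of the GM-CSF receptor, was at 26.8 and 27.3 FPKM in the CD137 libraries and 17.1 FPKM in the control. The lower ones were Il6ra, the interleukin-6 receptor, with 9.51 and 10.1 FPKM in the CD137 libraries and 17.7 FPKM in the control, and Il10ra, the interleukin-10 receptor, with 6.16 and 7.21 FPKM in the CD137 libraries and 12.6 FPKM in the control. Il10ra was named after its values were seen.

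Among 27 listed ligands 7 were expressed. Of these, 6 rose and none fell, but 4 of the 7 were expressed only through the CD137 libraries, so the count is no support for a direction. Osm, oncostatin M, was at 9.82 and 10.4 FPKM in the CD137 libraries and 4.03 FPKM in the control. Ebi3, a subunit shared by interleukin-27 and interleukin-35, was at 40.3 and 38.9 FPKM in the CD137 libraries and 24.99 FPKM in the control. Csf2, which encodes GM-CSF, averaged 1.18 ± 0.14 FPKM (SD, n = 2) in the CD137 libraries and was at 0.17 FPKM in the control. Il23a, the p19 subunit of interleukin-23, was at 9.11 and 12.2 FPKM in the CD137 libraries and 0.75 FPKM in the control.

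Inhibitors of the pathway outside the 4 SOCS members went both ways. Of 17 expressed genes of that list 4 rose, 2 fell and 11 did not pass, with a median log2 fold change of 0.04. The shares over all expressed genes were 24.4 percent higher and 18.2 percent lower. Usp18, an interferon-induced inhibitor of the type I interferon receptor, was at 5.11 and 5.28 FPKM in the CD137 libraries and 2.50 FPKM in the control (limma adjusted p = 0.00274). The phosphatase genes past the threshold went opposite ways, and the others of the list, Ptpn1, Ptpn2 and Ptpn11, did not pass. Ptprc (CD45) was at 89.5 and 88.7 FPKM in the CD137 libraries and 67.7 FPKM in the control, and Ptpn6 (SHP-1) at 92.0 and 91.9 FPKM in the CD137 libraries and 108.0 FPKM in the control. Pias2, of the family of STAT inhibitors named PIAS, was at 19.7 and 19.9 FPKM in the CD137 libraries and 16.4 FPKM in the control. The remaining SOCS genes, Socs4, Socs5, Socs6 and Socs7, were between 5.12 and 14.1 FPKM in all libraries, and none passed.

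**Figure D5:**
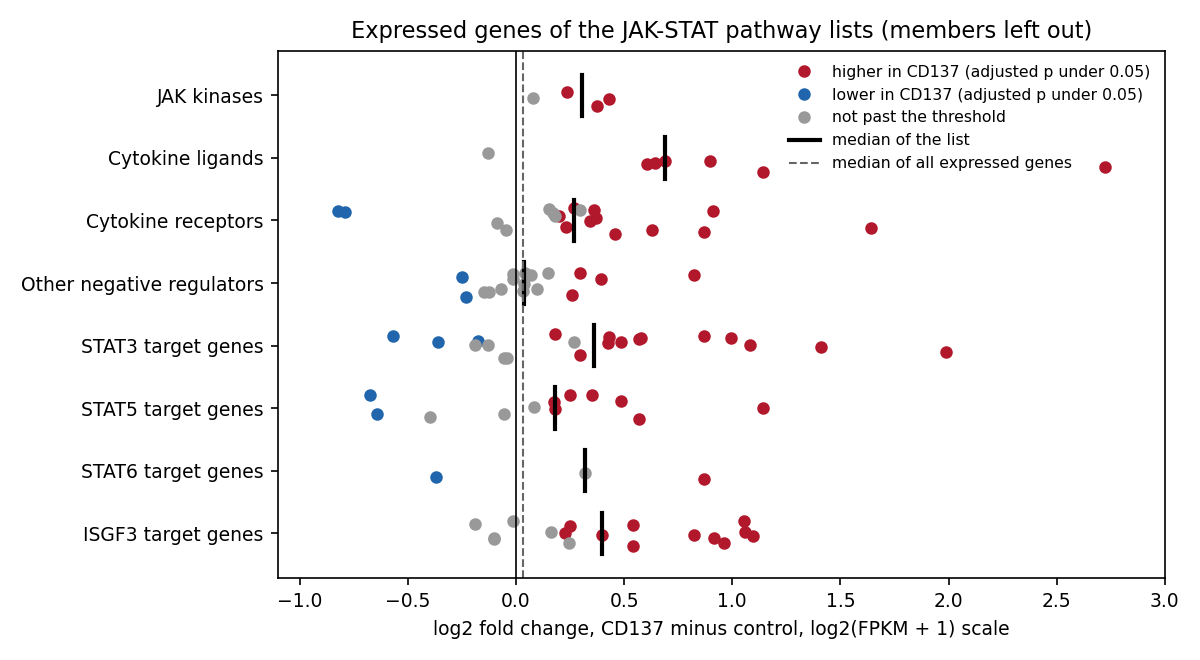
Log2 fold change (CD137 minus control, log2(FPKM + 1) scale) of every expressed gene in 8 pathway lists with the 9 members left out, each point a gene, coloured by the limma call, with black bars at list medians and a dashed line at the median of all expressed genes. The medians run from 0.04 for the other negative regulators to 0.69 for the cytokine ligands.

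Downstream of the STATs the target lists, whose genes also respond to other factors, were mixed. Of 20 expressed STAT3 target genes 12 rose, 3 fell and 5 did not pass (median log2 fold change 0.36). Among all expressed genes 24.4 percent rose and 18.2 percent fell. Lcn2, a gene expressed only through the CD137 libraries that encodes a siderophore-binding lipocalin, was at 4.12 and 3.96 FPKM in the CD137 libraries and 0.27 FPKM in the control, and the AP-1 gene Fos was at 8.93 and 8.56 FPKM in the CD137 libraries and 2.66 FPKM in the control. Myc was at 6.57 and 6.49 FPKM in the CD137 libraries and 2.56 FPKM in the control. The survival gene Mcl1 fell, with 97.6 and 96.6 FPKM in the CD137 libraries and 144 FPKM in the control (log2 fold change -0.57 ± 0.04, SE, limma adjusted p = 0.00116).

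Of 12 expressed STAT5 target genes outside the members 7 rose and 2 fell, with a median log2 fold change of 0.18. All expressed genes had 24.4 percent higher and 18.2 percent lower. Bcl2l1, which encodes the survival protein BCL-XL, was at 32.5 and 30.9 FPKM in the CD137 libraries and 22.4 FPKM in the control. The repressor Bcl6, known to be repressed by STAT5 in lymphoid cells, was at 10.56 and 10.04 FPKM in the CD137 libraries and 16.6 FPKM in the control. The cyclin gene Ccnd3 was at 17.6 and 17.8 FPKM in the CD137 libraries and 28.8 FPKM in the control. Of the 18 STAT6 targets outside the members, most of them markers of interleukin-4-activated macrophages, only 3 were expressed. The interleukin-4 receptor gene Il4ra rose, with 4.20 and 3.70 FPKM in the CD137 libraries and 1.71 FPKM in the control. Klf4 fell, with 6.10 and 5.28 FPKM in the CD137 libraries and 7.64 FPKM in the control. Clec10a, at 2.58 and 3.42 FPKM in the CD137 libraries and 2.19 FPKM in the control, did not pass.

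Of 17 expressed genes induced by the STAT2 complex ISGF3, 11 rose and none fell (median log2 fold change 0.40), and 1 of the 11 was expressed only through the CD137 libraries. Stat2 itself did not pass. Irf7, a transcription factor of the interferon response, was at 5.59 and 5.52 FPKM in the CD137 libraries and 2.07 FPKM in the control. Oas2, an antiviral oligoadenylate synthetase, was at 5.99 and 6.07 FPKM in the CD137 libraries and 2.38 FPKM in the control. Ddx58, which encodes the RNA sensor RIG-I, was at 15.1 and 14.1 FPKM in the CD137 libraries and 6.99 FPKM in the control, and Ifi44 was at 8.56 and 7.77 FPKM in the CD137 libraries and 3.85 FPKM in the control. The lists share genes with each other, and over all expressed genes 24.4 percent rose and 18.2 percent fell.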

How the data were processed

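The members and gene lists were chosen with earlier results of these data known, and the filter on expressed genes follows an earlier analysis in which the fit of all genes made 0 calls. Groups and replicate numbers come from the sample titles. Expression was deposited by the authors as FPKM, with 2 decimals, for each gene in each library. The submitters' processing notes name HISAT2, Bowtie2, RSEM and mm10 but give them no role or version. The table also holds the authors' log2 ratios, the authors' Poisson p-values for pairs of libraries, per the file headers, and the authors' adjusted values, which exceed 1 and were treated as a score; neither the log2 ratios nor that score was used. Of 21990 genes, 5987 have no value, and 1 broken-off line was left out.

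limma 3.58.1 in R 4.3.3, with a mean-variance trend, was fitted to log2(FPKM + 1) over 10720 genes with at least 1 FPKM in some library, with 1 residual degree of freedom, and Benjamini-Hochberg adjustment at 0.05. The spread comes from the CD137 pair, and the control is assumed to vary as they do. Fragments were solved from the p-values, each being 2 times the smaller tail of a Poisson test conditional on the other library, for 90.7 percent of genes with a value. Intervals from fragments are exact (Poisson, or Clopper-Pearson for ratios), at 95 percent, and cover counting error only. The fits and the recovery were also run on simulated data, with results not given here. Libraries were drawn independently in those runs, so they cannot show how far cultures or controls vary.

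All 9 members are named, with up to 4 expressed genes per list by smallest p, every listed JAK, Tnfrsf9, and the 3 genes nearest to the member with the largest change; 1 gene that the rule names is not reported here. Promoter windows are RefSeq's, GRCm38.p6.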

Additional observations from a re-analysis of the deposited data

How the results depend on the processing

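Of 10720 expressed genes 4563 passed, and between 3801 and 5080 passed with a pseudocount of 0.1 or 0.5, a mean of at least 5 FPKM, TPM, median centring, no variance trend, or limma-voom on recovered fragments; with no filter on low values the limma count was 0, with 5281 genes at an unadjusted p under 0.05. Members higher in CD137 numbered 2 (Cish and Stat3), 0 with no filter and 1 at a mean of at least 5 FPKM, where Cish was not tested. Members lower numbered 1 (Stat6), 0 with no filter and 0 without the trend. Each member kept its sign under every alternative run for it. With no filter the limma adjusted p was 0.0811 for Cish, 0.0989 for Stat3 and 0.1003 for Stat6. The cause of these losses was not tested. The log2 fold change of Cish ran from 1.301 to 3.12, the highest with limma-voom, which uses no pseudocount of 1. Leaving out either CD137 library, a value with no test, gave 1.301 to 1.47 for Cish, 0.26 to 0.30 for Stat3, -0.24 to -0.20 for Stat6, and 0.05 to 0.45 for Socs1, whose higher value rests on CD137 replicate 2. The count of ligands that rose was 3 at a mean of at least 5 FPKM, that of ISGF3 targets 6 and that of STAT6 targets 0. Without the trend 4 STAT5 targets rose and 0 STAT6 targets fell, and with limma-voom 2 other inhibitors rose and 1 STAT3 target fell. With no filter the lists held 0 calls. No paired analysis was possible because the groups share only replicate number 2 in the table. Depth limits Socs1 and Socs2, with 1 recovered fragment each in the control.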
